A study of Mus musculus with 39 samples.

Results

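The regions described here are the 300 widest H3K27ac domains of Pdgfra+ naive extra-embryonic endoderm (nEnd) cells, of 5037 H3K27ac regions found in that population. They were chosen by merging the peaks of the 3 Pdgfra+ H3K27ac libraries, keeping merged regions with a peak in 2 or more of the libraries, and taking those with the largest end minus start. H3K27ac in Pdgfra+ cells therefore selected the domains, and values of that mark in that population are given as description only. Mouse nEnd cultures of an OCT4-mCherry reporter line, grown with no treatment, were sorted by FACS on the reporter and on PDGFRA-APC. The sorted populations were positive for OCT4-mCherry alone (Oct4+), positive for both (DP, double positive) or positive for PDGFRA-APC alone (Pdgfra+). All of the libraries came from this 1 reporter line, and the gates rest on these 2 proteins. CUT&Tag, in which an antibody tethers a transposase to chromatin so that the DNA around a histone mark is tagged, was performed for H3K27ac, H3K4me1, H3K27me3 and H3K9me3, with 3 replicates of each mark in each population and 36 libraries in all.

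H3K27ac marks active promoters and enhancers, and H3K4me1 marks enhancers and the flanks of promoters, whether or not they are active. H3K27me3 is laid down by the polycomb repressive complex PRC2, and H3K9me3 marks heterochromatin. Long stretches of H3K27ac, often called super-enhancers or broad domains, tend to lie at genes that a cell type transcribes strongly. Primitive endoderm gives rise to the parietal and visceral endoderm of the yolk sac and secretes large amounts of the basement membrane proteins laminin, type IV collagen and perlecan.

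The most strongly tagged piece of a domain can be shown directly. The 6 windows printed here are from domains at endoderm genes (Krt8, Lama5 and Pth1r) and from the domains with the largest H3K27ac difference between DP and Oct4+ that are described with their values later (Vit, Mbnl2 and Klf6). Each is 300 bases of the plus strand of GRCm38 (mm10), centred on the interval of maximum signal of the widest Pdgfra+ peak in the domain. The Lama5, Pth1r, Vit and Mbnl2 windows are intronic, the Krt8 and Klf6 windows lie outside annotated protein-coding genes, and none overlaps a promoter, taken as 1000 bp before to 100 bp after a gene start. Capitals mark matches on either strand to 9 motifs, in which N is any base. The letters AGATAA stand for GATA factors and the letters TGANTCA for AP-1. Forkhead factors were searched as TGTTTAC, SOX factors as ACAATG and TEAD factors as GGAATG. The octamer bound by OCT4 was searched as ATGCAAAT, the site of TFAP2 factors as GCCNNNGGC, the GC box of promoters as GGGCGG and the STAT site as TTCCNGGAA. No match overlapped another in these windows.
Krt8 domain, chr15:102017852-102018151: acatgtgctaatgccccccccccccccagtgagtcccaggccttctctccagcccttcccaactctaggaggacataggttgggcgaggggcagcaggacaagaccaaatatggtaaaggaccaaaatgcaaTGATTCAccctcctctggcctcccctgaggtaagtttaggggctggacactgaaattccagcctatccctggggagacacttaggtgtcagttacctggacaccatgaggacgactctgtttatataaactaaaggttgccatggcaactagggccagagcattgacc
Lama5 domain, chr2:180222725-180223024: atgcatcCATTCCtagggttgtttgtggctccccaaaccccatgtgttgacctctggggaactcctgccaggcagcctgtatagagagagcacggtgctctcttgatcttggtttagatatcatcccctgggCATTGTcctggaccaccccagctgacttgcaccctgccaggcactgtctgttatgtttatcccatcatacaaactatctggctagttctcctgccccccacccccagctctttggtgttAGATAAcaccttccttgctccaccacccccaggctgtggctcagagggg
Pth1r domain, chr9:110744030-110744329: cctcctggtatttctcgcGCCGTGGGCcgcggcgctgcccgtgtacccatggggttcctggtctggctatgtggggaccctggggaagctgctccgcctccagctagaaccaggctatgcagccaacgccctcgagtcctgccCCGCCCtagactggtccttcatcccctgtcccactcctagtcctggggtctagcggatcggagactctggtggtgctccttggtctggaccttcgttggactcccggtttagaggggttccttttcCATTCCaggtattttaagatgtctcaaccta
Vit domain, chr17:78586920-78587219: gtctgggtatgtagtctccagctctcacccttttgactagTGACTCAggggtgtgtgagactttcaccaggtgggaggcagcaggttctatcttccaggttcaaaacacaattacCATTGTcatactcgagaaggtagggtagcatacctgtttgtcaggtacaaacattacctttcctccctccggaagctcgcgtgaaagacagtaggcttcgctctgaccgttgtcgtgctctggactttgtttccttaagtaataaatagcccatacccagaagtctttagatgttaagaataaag
Mbnl2 domain, chr14:120283173-120283472: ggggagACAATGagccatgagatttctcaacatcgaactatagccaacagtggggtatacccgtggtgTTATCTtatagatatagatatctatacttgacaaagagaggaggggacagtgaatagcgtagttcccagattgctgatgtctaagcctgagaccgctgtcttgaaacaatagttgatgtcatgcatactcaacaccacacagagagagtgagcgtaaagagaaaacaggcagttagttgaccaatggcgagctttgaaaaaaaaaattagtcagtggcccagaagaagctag
Klf6 domain, chr13:5826243-5826542: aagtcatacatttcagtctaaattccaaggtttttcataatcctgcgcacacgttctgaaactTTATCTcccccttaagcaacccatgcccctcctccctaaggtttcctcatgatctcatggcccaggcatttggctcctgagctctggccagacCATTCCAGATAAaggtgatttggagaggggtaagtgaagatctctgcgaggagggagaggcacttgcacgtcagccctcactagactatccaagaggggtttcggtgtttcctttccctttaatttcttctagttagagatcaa

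The Lama5 window held a TEAD, a SOX and a GATA match, the Mbnl2 window a SOX and a GATA match, and the Klf6 window 2 GATA matches beside 1 TEAD match. The Vit window held an AP-1 and a SOX match, the Krt8 window an AP-1 match, and the Pth1r window a TFAP2, a GC box and a TEAD match. None of the 6 held the octamer. A match is a description of letters and not a binding site.

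The 300 domains were 11256 to 83214 bp wide, with a median of 14265.5 bp and an interquartile range of 12573.5 to 16718 bp. The other 4737 regions had a median width of 4957 bp. Together the domains covered 4.71 Mb. Peaks of all 3 Pdgfra+ libraries contributed to 265 domains and peaks of 2 libraries to 35. The merged width is an outer bound: the share of a domain's bases covered by 2 or more Pdgfra+ libraries had a median of 68.7% and ran from 12% to 99.8%, and 176 domains were made of 2 or more peaks in at least 1 library. The domains just inside the limit lay at Tjap1, Slc6a6 and Fdft1, with widths of 11283, 11279 and 11256 bp, and those just outside at Arhgap21, Eif3h and Zfp622, with 11252, 11244 and 11240 bp, so that the limit separates nearly equal regions.

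**Figure D1:**
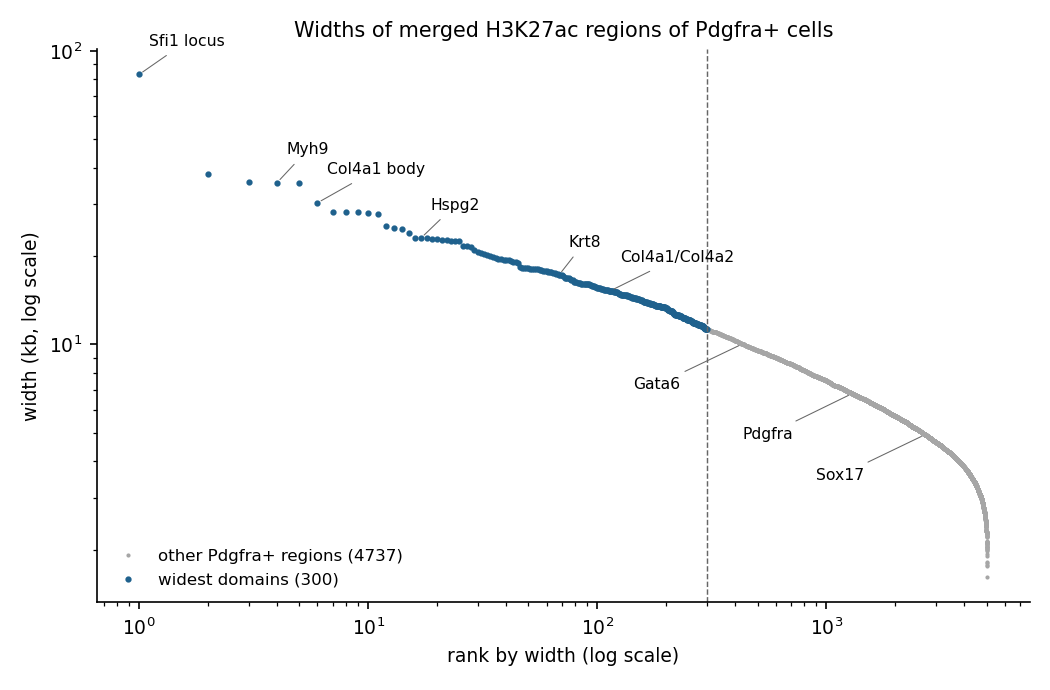
Width in kb against rank for all 5037 merged H3K27ac regions of Pdgfra+ cells, both axes on a log scale, with the 300 widest in blue, the other 4737 in grey and a dashed line at the limit. The Sfi1 locus stands far above the next domain, while the regions over the starts of Gata6 (rank 430) and Pdgfra (rank 1295) and beside that of Sox17 (rank 2695) lie to the right of the limit.

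Peak lists differed in length, which bears on every share given here. For H3K27ac, Oct4+ lists held 8574 to 65131 peaks, DP lists 3079 to 12244 and Pdgfra+ lists 4792 to 7128. The shortest was that of DP replicate 2, and within Oct4+ that of replicate 3. The number of reads is not part of these lists, so depth is unknown, and a stretch without a listed peak may still carry the mark. Cells were sorted in bulk, so a mark in fewer cells and less of a mark per cell cannot be told apart. The sorted identity was compared with marker lists, beside the 18.8% of all 21938 protein-coding genes with a start in any of the 5037 regions. None of the 12 mesenchyme genes and none of the 13 visceral endoderm secreted genes had its start there. Of 20 pluripotency genes 2 did (Klf4 and Tbx3, with Nanog, Pou5f1 and Sox2 outside). Of 14 endoderm transcription factors 5 did (35.7%), among them Gata6, Gata4, Sox7 and Foxa2. Of 14 trophectoderm genes 3 did (21.4%), namely Krt8, Krt18 and Tead4, and the 2 keratins are also in the parietal endoderm list. The trophectoderm share was thus not below that of all genes, and these counts alone do not settle the identity of the sorted cells.

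The widest domain, at chr11:3122681-3205894, stood apart and is named separately. It spans the starts of Sfi1, which encodes a centriolar protein, and Eif4enif1. It came from peaks of 72115 and 83214 bp in Pdgfra+ replicates 1 and 3, with a peak of 2412 bp in replicate 2. The wide peaks held the highest maximum signal of those 2 lists, 236 and 181 fragments. At most 6.54% of the Sfi1 domain was under an H3K27ac peak in any Oct4+ library and at most 4.28% in any DP library. H3K27me3 peaks covered 22.6%, 49.95% and 74.1% of it in Oct4+, 81.1% in DP replicate 1 with 0 in the others, and 8.60%, 0 and 74.9% in Pdgfra+. Whether reads map uniquely at this locus was not tested. The locus is kept in every count here, and leaving it out is among the alternatives.

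Gene starts were less frequent in the wide domains than in the other regions. Of the 300, 167 (55.7%) held the start of at least 1 protein-coding gene, against 66.5% of the other regions, 108 more lay over a gene body without a start, and 25 lay outside protein-coding genes. The 167 held 244 gene starts, and 52 of them held 2 or more. Introns made up 68.1% of the domains' bases and exons 8.88%, against 58.3% and 10.9% in the other regions. The GC content was similar, with a median of 50.2% against 49.6%, and both lay above the genome's 41.7%. CpG dinucleotides were sparser, at a median of 17 per kb against 26.5 per kb in the other regions and 8.26 per kb in the genome. Repeat-masked sequence made up a median of 17.8% of a domain and 17.1% of another region.

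Genes of the basement membrane were the best represented of the lists examined. Of its 19 genes, 5 had their start in a domain (26.3%) and 6 lay within 20 kb of one, against 1.11% and 2.193% of the 21938 protein-coding genes. The domain at chr8:11302835-11318077 (rank 114, 15243 bp) held the shared promoter region of Col4a1 and Col4a2, which encode the chains of type IV collagen. A domain of 30385 bp (rank 6) lay within the Col4a1 gene body, and 2 further ones (ranks 224 and 240) within Col4a2. Type IV collagen genes thus carried 4 of the 300 domains. Hspg2, which encodes perlecan, had a domain of 23065 bp (rank 17). The laminin genes Lama5 and Lamb1 had domains of 15850 bp (rank 96) and 14207 bp (rank 153), and the domain of Sparc, a secreted collagen-binding protein, lay 582 bp from its start (rank 188). The remaining genes of the list lay outside: Lama1 and Serpinh1, a collagen chaperone, held their starts in regions of 6758 bp (rank 1318) and 10267 bp (rank 404), and Lamc1, Nid1, Fn1 and Itga6 were over 20 kb from any region.

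Cytoskeleton and adhesion genes followed closely, with 4 of 17 starts in a domain (23.5%) and 5 within 20 kb. Myh9, the heavy chain of non-muscle myosin IIA, had the fourth widest domain, of 35613 bp, and a further one of 12699 bp within its gene body. Cdh1, which encodes E-cadherin, had a domain of 23074 bp (rank 16), Ahnak of 15427 bp (rank 105) and Actb of 12596 bp (rank 221). A domain lay 7259 bp from the start of Ezr (rank 277), which links actin to the membrane.

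Among parietal endoderm genes, 2 of 11 starts lay in a domain. Krt8, a keratin of simple epithelia, had a domain of 17251 bp (rank 68) that ended 9100 bp from the start of its partner Krt18, and both genes also stand in the trophectoderm list, where they are the only members near a domain. Pth1r, the receptor for parathyroid hormone-related peptide, shared a domain of 15280 bp (rank 111) with Myl3. Of the immediate early and AP-1 genes, 3 of 15 starts lay in a domain: Junb (rank 100, 15617 bp), Zfp36 (rank 167) and Ier2 (rank 243). In the JAK-STAT list only Socs3, the feedback inhibitor of the pathway, had a domain (rank 62, 17686 bp, from 2 libraries), and in the endocytosis and lysosome list only Lrpap1, the chaperone of the LDL receptor family (rank 137). Both lists held 13 genes.

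Listed lineage regulators had narrower regions at their starts, or none. None of the 14 endoderm transcription factors, 15 receptors and ERK targets, 13 visceral endoderm secreted genes, 20 pluripotency genes or 12 mesenchyme genes had its start within 20 kb of a domain. The widest regions over starts in these lists were those of Tbx3, at 10204 bp and rank 413, and of Gata6, at 10045 bp and rank 430, while Gata4 and Foxa2 had regions of 5432 and 4825 bp. Pdgfra itself, the gene used for sorting, had a region of 6805 bp at rank 1295. The lists and the domains were chosen with earlier results of these data known, so these counts are descriptions.

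Several genes outside the lists carried wide domains. The 10 widest, after the Sfi1 locus, lay within Ptpn14 (38064 bp), a phosphatase of the Hippo pathway, and at Fam129b (35647 bp), Myh9, Pmepa1 (35535 bp), an inhibitor of TGF-beta signalling, within Col4a1, at Srebf1 (28343 bp), which encodes a transcription factor of lipid synthesis, at Glipr2 (28320 bp), over Fam25c, Mmrn2 and Sncg (28241 bp) and within Cystm1 (27945 bp). In all, 16 genes were overlapped by 2 or more domains, and Tead1, a transcription factor of the Hippo pathway, and Col4a2 by 3 each. The 3 Tead1 domains (ranks 25, 97 and 107) summed to 53618 bp.

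More of these wide domains were among the widest regions of DP than among those of Oct4+, when each population was ranked by its own widths. The same rule applied to the other populations gave 8821 DP and 23570 Oct4+ H3K27ac regions. Of the 300 Pdgfra+ domains, 151 (50.3%) overlapped 1 of the 300 widest DP regions, and those made up 50.3% of the DP list. Only 44 (14.7%) overlapped 1 of the 300 widest Oct4+ regions, also 14.7% of that list. These overlaps were not counted for the other Pdgfra+ regions, so the contrast cannot be called particular to the wide domains. The overlap was with DP alone for 127 domains, with both for 24, with Oct4+ alone for 20 and with neither for 129. The overlap with DP fell along the ranks, from 68 of the 100 widest to 54 of the next 100 and 29 of the last 100, whereas that with Oct4+ was 17, 17 and 10.

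The same held library by library. On the 300 widest H3K27ac peaks of each library lay 36, 40 and 29 domains in Oct4+ (35.0 ± 5.57, SD, n = 3), 138, 97 and 142 in DP (126 ± 24.9) and 205, 110 and 186 in Pdgfra+ (167 ± 50.3, description only). The DP and Oct4+ libraries did not overlap, and the gap between their nearest libraries, 97 and 40, was larger than the spread within either population. No p is given, because the domains were chosen with results known, and 3 libraries against 3 cannot fall below an exact two-sided p of 0.1. The other Pdgfra+ regions were not counted in this way either.

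**Figure D2:**
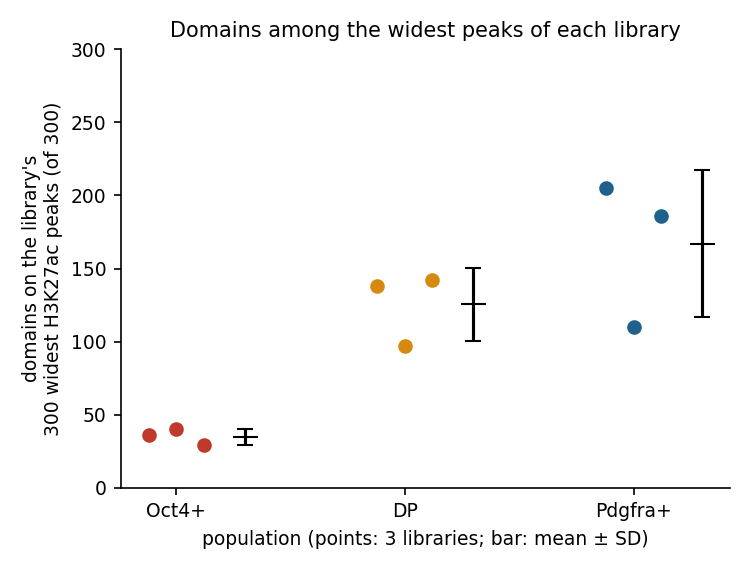
Number of the 300 domains that overlap the 300 widest H3K27ac peaks of each library, by population, with points for the 3 libraries and bars for mean ± SD. The Oct4+ libraries sit between 29 and 40, the DP libraries between 97 and 142, and the Pdgfra+ libraries, which chose the domains, between 110 and 205.

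Presence of H3K27ac alone separated the populations less. A peak in 2 or more libraries was found at 297 domains in DP and 274 in Oct4+, beside 96.6% and 80.5% of all regions, and no domain and none of all 5037 regions lacked a peak in every DP library. The covered share, meaning the percentage of a region's bases under listed peaks, averaged over the 300 domains, was 44.9%, 57.4% and 18% in the Oct4+ libraries (40.1 ± 20.1, SD, n = 3). In DP it was 71.7%, 35.0% and 79.9% (62.2 ± 23.9), and DP replicate 2 lay below 2 of the 3 Oct4+ libraries. The difference of 22.1 points between the means was therefore about as large as the spread between replicates. It was 35.5 points (SD 15.3) with equal numbers of peaks per list, 35.7 (SD 14.8) without DP replicate 2, 13.2 (SD 23.2) without DP replicate 3 and 11.1 (SD 18) without Oct4+ replicate 3. In Pdgfra+ the values were 80.4%, 46.8% and 73.9%.

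Relative to the other Pdgfra+ regions of the same library, which share its list length, the domains were covered less in Oct4+ and about equally in DP. Domains minus other regions gave -7.32, -3.40 and -9.81 points in Oct4+ (-6.84 ± 3.23, SD, n = 3) and -3.92, 1.18 and -0.77 points in DP (-1.17 ± 2.57). The lowest DP value, -3.92, lay below the highest Oct4+ value, -3.40, so the libraries overlapped, and the difference of 5.67 points between the means is given without a p. Held to equal numbers of peaks per list it was 13.5 points.

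**Figure D3:**
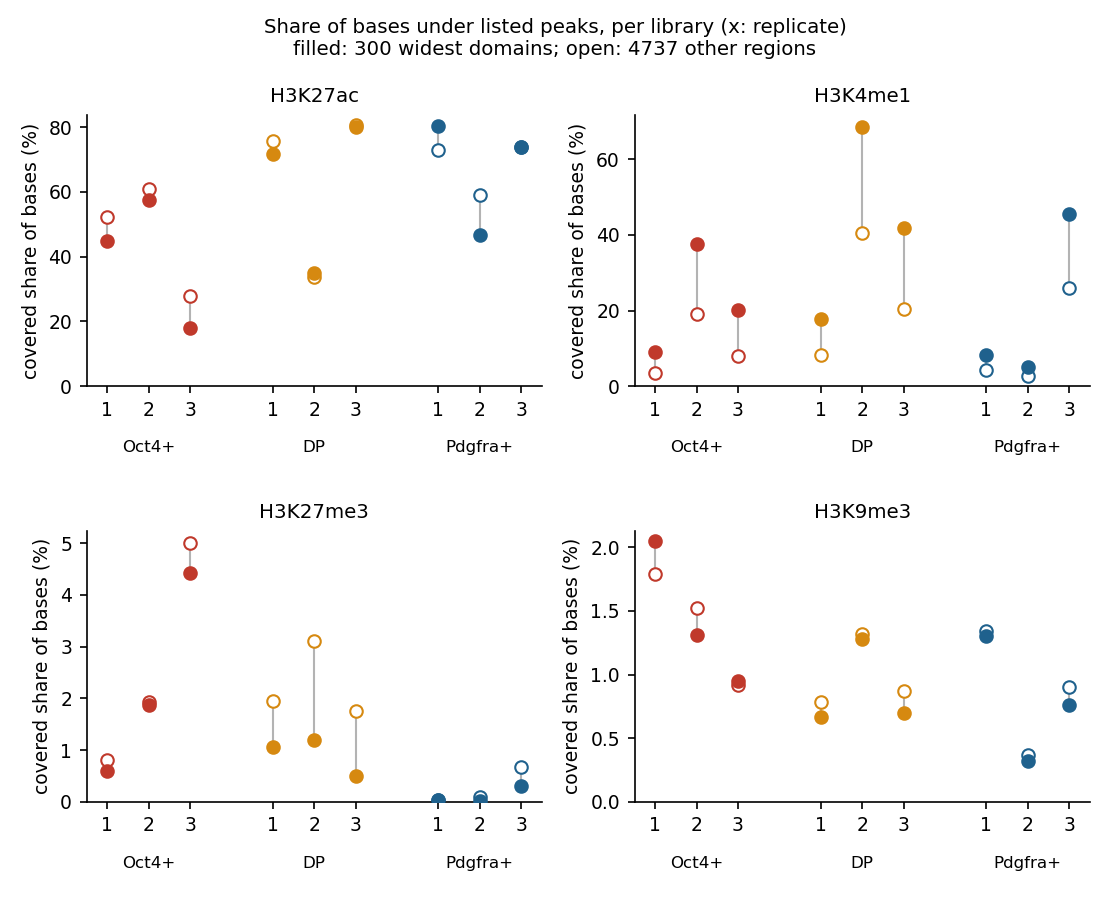
Covered share of bases (%) in each of the 36 libraries, in 1 panel per mark with its own axis from 0, for the 300 domains (filled) and the 4737 other regions (open), by population and replicate. H3K4me1 is higher over the domains in all 9 libraries, and H3K9me3 is near equal over domains and other regions. H3K27me3 is under 5% throughout and lowest in Pdgfra+, whose H3K27ac chose the regions.

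Domain by domain, DP was higher than Oct4+ more often than the reverse. Every DP library lay above every Oct4+ library at 62 domains (20.7%), against 15.8% of all 5037 regions, and the reverse held at 2 domains (0.667%), against 0.794% of all regions. Without DP replicate 2, whose list is the shortest, the count was 170 (56.7%, beside 48.5% of all regions), and without Oct4+ replicate 2, whose list is the longest, 107 (35.7%, beside 25.5%). With lists held to equal numbers of peaks it was 122 (40.7%, beside 17.2% of all regions), and with relative total signal in place of covered bases 187 (62.3%, beside 31.1%). In the reverse direction the count was 16 without Oct4+ replicate 3 (5.33%, beside 5.16%), 6 without DP replicate 1 (2.0%, beside 2.12%), and with the Pdgfra+ regions remade 1 without Pdgfra+ replicate 2 (0.333%, beside 0.808%) and 0 without Pdgfra+ replicate 3 (0.0%, beside 0.562%). The DP minus Oct4+ difference had a median of 22.8 points over the domains and 13.8 points over the other regions. It was above 0 at 251 domains and below 0 at 49, beside 3760 and 1274 of all 5037 regions. Most regions of any width thus leaned towards DP.

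The domains were divided by whether they hold a gene start. Of those with a start, 32 of 167 (19.2%) had every DP library above every Oct4+ library, against 13.2% of the other regions with a start. Of the domains without a start it was 30 of 133 (22.6%), against 20.1%. Oct4+ covered 47.2%, 60.4% and 22.2% of the domains with a start and 59.4%, 66.8% and 33.9% of the other regions with one, lower in each of the 3 libraries. Without a start, its libraries covered 42.0%, 53.6% and 12.8% of the domains and 38.0%, 48.9% and 15.9% of the other regions. Of the 35 domains with peaks in 2 Pdgfra+ libraries, 1 was called, against 61 of the 265 with peaks in 3.

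A stricter reading asked for peaks over most of a domain. Peaks covered at least 50% of the bases in 2 or more libraries at 242 domains in DP, beside 86.2% of all regions, and at 120 in Oct4+, beside 52.8%. This was so in DP and not in Oct4+ at 141 domains (47.0%, beside 36.5% of all regions), in both at 101 (33.7%, beside 49.8%), in Oct4+ and not DP at 19 (6.33%, beside 3.08%) and in neither at 39 (13.0%, beside 10.7%).

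**Figure D4:**
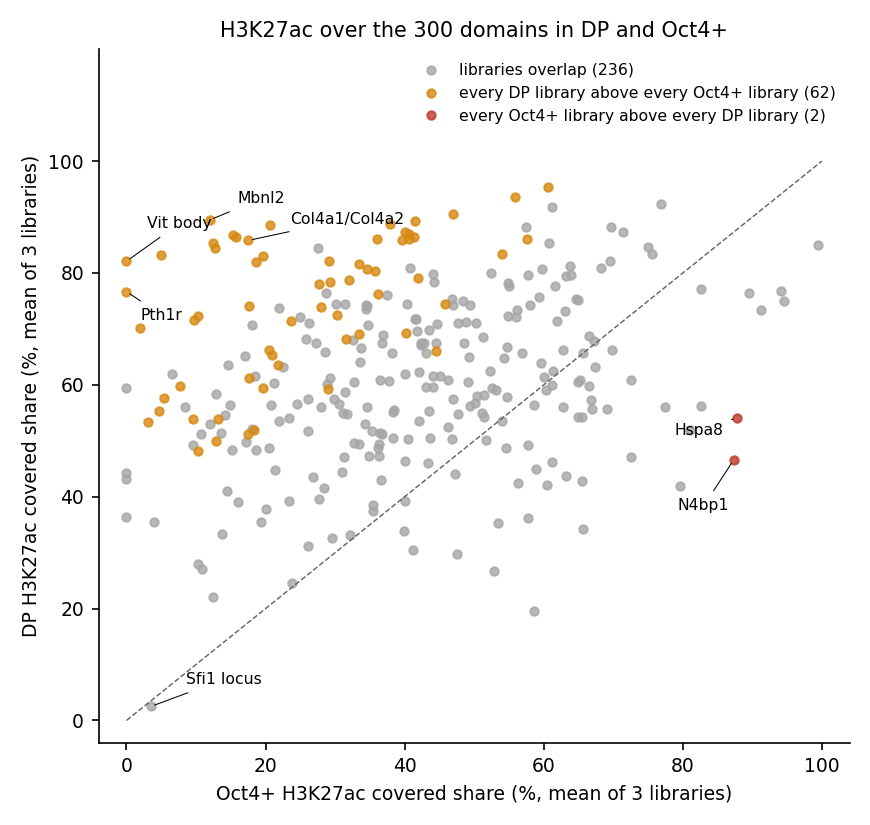
Mean H3K27ac covered share (%) of 3 DP libraries against that of 3 Oct4+ libraries for each of the 300 domains, with the diagonal dashed. The 62 domains with every DP library above every Oct4+ library are orange and lie at the upper left, the 2 of the reverse, Hspa8 and N4bp1, are red at the right, and the Sfi1 locus lies near the origin.

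Of the 8 domains with the largest differences, 3 held a gene start, 4 lay within a gene and 1 lay outside genes. At a domain within Vit (rank 278), which encodes vitrin, a secreted matrix protein, no Oct4+ library had a peak, and DP covered 84.7%, 73.7% and 87.9%. At the start of Mbnl2 (rank 201), a splicing regulator, Oct4+ covered 9.93%, 26.0% and 0 and DP 100%, 68.5% and 99.9%. At Sh3pxd2b (rank 81), an adaptor of podosomes, Oct4+ covered 0, 14.7% and 0 and DP 88.4%, 61.3% and 100%. In each of the 3, the DP libraries lay above all Oct4+ libraries with a wide gap.

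At the domain 26819 bp from the start of Klf6 (rank 112), a zinc-finger transcription factor, Oct4+ covered 37.3%, 0 and 0 and DP 92.9%, 77.9% and 85.5%. The domain within Creb3l2 (rank 30), which encodes a transcription factor of the secretory pathway, was covered by 8.72%, 38.5% and 0 in Oct4+ and by 86.3%, 72.7% and 100% in DP. The others were the Pth1r domain, a domain within Retreg1 (rank 210) and one within Stra6 (rank 108), the membrane receptor for retinol-binding protein. In the reverse direction, N4bp1 (rank 258) was covered by 94.7%, 100% and 67.2% in Oct4+ and by 66.9%, 29.9% and 42.8% in DP. Hspa8 (rank 236), a constitutive chaperone, was covered by 100%, 87.7% and 75.7% in Oct4+ and by 71.9%, 20.3% and 70.1% in DP. At both genes the nearest libraries were close.

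Basement membrane domains did not behave alike. At the shared Col4a1 and Col4a2 start, Oct4+ covered 29.3%, 23.3% and 0 and DP 90.6%, 67.2% and 99.6%. Within Col4a1 the Oct4+ values were 0, 5.91% and 0 and the DP values 85.6%, 50.9% and 73.8%. Sparc was covered by 41.0%, 54.2% and 13.3% in Oct4+ and by 65.6%, 63.4% and 99.6% in DP. The populations were apart at these 3 domains. At Lamb1, DP replicate 2 had no peak beside 100% and 85.6% in the others, and Oct4+ had 0, 19.5% and 0, so the libraries overlapped. Hspg2 was covered by 38.4%, 87.9% and 14.5% in Oct4+ and by 91.2%, 61.8% and 70.0% in DP, and Lama5 by 97.6%, 100% and 71.0% in Oct4+ and by 86.8%, 45.3% and 97.0% in DP. At both, the populations overlapped.

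The other list genes divided in the same manner. Krt8 was apart, with 29.7%, 41.4% and 0 in Oct4+ and 72.4%, 46.2% and 95.5% in DP, as was Ahnak, with 36.6%, 69.6% and 12.6% against 74.0%, 83.5% and 100%. Cdh1, Myh9, Actb, Ezr, Junb, Ier2, Zfp36, Lrpap1 and Socs3 overlapped between the populations. At Socs3, DP replicate 2 had no peak and Oct4+ covered 32.7%, 77.8% and 29.9%. Of the 62 domains with DP above Oct4+, 39 were also among the 300 widest regions of DP and 1 among those of Oct4+. Of all 300 domains it was 151 and 44. The same DP and Oct4+ peak lists gave the 62 and the widest regions, so these counts are not independent.

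Only 6 domains (2.0%, beside 7.21% of all regions) had no H3K27ac peak in any Oct4+ library. Among them were the domains at Pth1r, within Vit, within Rftn1 and 43641 bp from the start of Dhx40. DP replicate 2 lacked a peak at the Rftn1 and Dhx40 domains too. The other DP libraries covered 94.5% and 38.0% of the Rftn1 domain and 59.6% and 69.8% of the Dhx40 domain.

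**Figure D5:**
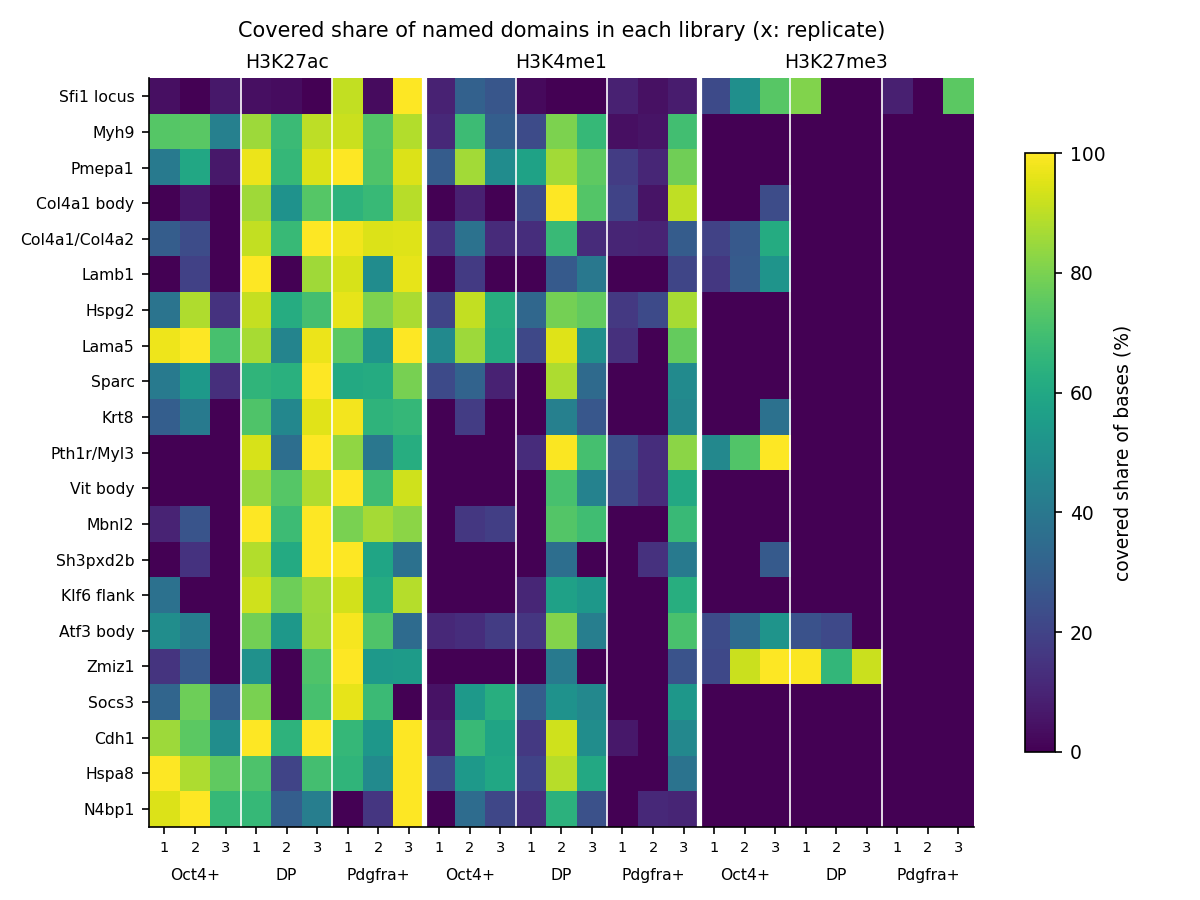
Covered share (colour, 0 to 100%) of 21 named domains (rows) in each H3K27ac, H3K4me1 and H3K27me3 library (columns, replicates 1 to 3 of each population). Pth1r and Vit are at 0 for H3K27ac in every Oct4+ library, and the Pth1r, Lamb1 and Col4a1/Col4a2 rows carry H3K27me3 in all Oct4+ libraries and in no DP or Pdgfra+ library.

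H3K4me1, which played no part in choosing the domains, was denser over them than over the other regions in 9 of 9 libraries. The covered share was 9.13%, 37.5% and 20.1% in Oct4+, against 3.43%, 19% and 8.0% in the other regions. In DP it was 17.8%, 68.5% and 41.7%, against 8.20%, 40.5% and 20.5%, and in Pdgfra+ 8.11%, 5.01% and 45.7%, against 4.11%, 2.58% and 25.8%. Domains minus other regions was 12.1 ± 6.39 points in Oct4+, 19.6 ± 9.34 in DP and 8.76 ± 9.63 in Pdgfra+ (SD, n = 3). The Pdgfra+ spread rests on replicate 3, whose list held 10620 peaks beside 1723 and 1074 in the others.

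The domains were again divided by gene start. At domains with a start, DP covered 15.4%, 67.4% and 37.8%, against 3.24%, 30.3% and 12.1% in the other regions with a start. Without a start, DP covered 20.8%, 70.0% and 46.7% of the domains and 18%, 60.6% and 37.1% of the other regions. Without a start, Oct4+ covered 8.28%, 33.5% and 17.9% against 6.16%, 25.1% and 13.2%. Pdgfra+ covered 9.93%, 7.25% and 49.4% against 9.89%, 6.05% and 47.3%, so its excess without a start was small. With a start, Pdgfra+ covered 6.66%, 3.23% and 42.7% against 1.19%, 0.828% and 15.0%. A wide region around a start holds proportionally less promoter, since promoters made up a median of 4.89% of a domain and 19% of another region. How much of the H3K4me1 excess goes with this was not tested.

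A peak of H3K4me1 in 2 or more libraries was found at 273 domains in DP, 190 in Oct4+ and 158 in Pdgfra+, beside 40.2%, 20.5% and 17.1% of all regions. Wider regions hold a peak more easily, so the covered share is the fairer measure. At least 50% of the bases were covered in 2 or more libraries at 110 domains in DP, 35 in Oct4+ and 2 in Pdgfra+, beside 19.6%, 6.15% and 2.44%. All 9 libraries had a peak at 41 domains and at 42 of the 4737 other regions, and 2 domains (0.667%, beside 30.1% of all regions) had none in any library.

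No domain passed adjustment for a difference in H3K4me1 between the populations. In the exact permutation test of the F statistic over all assignments of the 9 libraries, 0 domains and 0.0% of all regions passed an adjusted p of 0.05, and the lowest adjusted p was 1. At an unadjusted p under 0.05 there were 18 domains (6.0%, beside 3.14% of all regions), of which 15 were highest in DP, 2 in Oct4+ and 1 in Pdgfra+. This count depended on single libraries, from 7 (2.33%, beside 1.93%) without Oct4+ replicate 3 to 32 (10.7%, beside 7.18%) without Pdgfra+ replicate 3. It lay between 8 and 12 when any other library was left out except DP replicate 1, where it was 27 (9.0%, beside 6.39%). The count was 12 (4.0%, beside 2.78%) without Oct4+ replicate 1, 8 (2.67%, beside 2.16%) without Oct4+ replicate 2 and 11 (3.67%, beside 2.30%) without DP replicate 3. It was 9 (3.0%) without DP replicate 2 (beside 2.08%), Pdgfra+ replicate 1 (beside 2.59%) or Pdgfra+ replicate 2 (beside 3.12%). The share was thus near that of all regions in several settings. Among the 150 widest domains the share was 2.0%, below the 3.14% of all regions. Adjustment was over all 5037 regions, and the smallest possible p is 0.00357, so a region could pass only if many others came near that p. Among the named domains, the one within Shf (rank 289), which encodes an adaptor protein, was covered by 24.7%, 17.9% and 21.6% in Oct4+ and by 77.3%, 87.6% and 82.5% in DP, with 42.4%, 17.4% and 79.1% in Pdgfra+ (unadjusted exact p = 0.0321). The Sfi1 domain was highest in Oct4+, with 9.44%, 31.0% and 26.6%, against 2.43%, 0 and 0 in DP and 8.99%, 4.37% and 7.6% in Pdgfra+, where replicate 1 came close to the lowest Oct4+ library (unadjusted exact p = 0.00357).

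A pair of domains 22166 and 46148 bp from the start of Podxl, which encodes the sialomucin podocalyxin, was singled out after its values were seen. The nearer one (rank 208) had no H3K4me1 peak in Oct4+, 60.7%, 87.8% and 90.7% in DP and 39.7%, 11.7% and 79.0% in Pdgfra+. The other (rank 250) had none in Oct4+, 68.6%, 90.7% and 87.3% in DP and 56.4%, 29.7% and 91.3% in Pdgfra+. At both, every DP and Pdgfra+ library was above every Oct4+ library, and the unadjusted exact permutation p was 0.0179 and 0.0143, with an adjusted p of 1. The Vit and Pth1r domains likewise had no H3K4me1 peak in any Oct4+ library.

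H3K27me3 was scarce over the domains. The regions were chosen by H3K27ac in Pdgfra+ cells, a mark of the same histone residue. Pdgfra+ values of H3K27me3 are therefore not independent of that choice. The covered share was 0.601%, 1.87% and 4.42% in Oct4+, 1.05%, 1.19% and 0.500% in DP and 0.0287%, 0.00931% and 0.306% in Pdgfra+, and it was lower than over the other regions in all 9 libraries. No library had a listed peak at 268 of the 300 domains (89.3%), nor at 4574 of all 5037 regions (90.8%). A peak in 2 or more libraries was found at 14 domains in Oct4+, 6 in DP and 2 in Pdgfra+, beside 3.04%, 3.34% and 0.278% of all regions. By the exact permutation test with Benjamini-Hochberg adjustment, 0 domains and 0.0% of all regions passed, with a lowest adjusted p of 1. Most regions had no peak in any library, so few could reach a small p and passing adjustment was barely possible. The 0 therefore says little about differences between the populations. Unadjusted, 6 did (2.0%, beside 1.29%), 5 of them highest in Oct4+. This count fell to 1 (0.333%) without Pdgfra+ replicate 2 (beside 0.577%) or replicate 3 (beside 0.879%), and to 2 (0.667%) without Pdgfra+ replicate 1 (beside 0.610%), DP replicate 1 (beside 1.47%) or DP replicate 2 (beside 1.15%). It was 3 (1.0%, beside 1.37%) without DP replicate 3 and 11 (3.67%, beside 2.30%) without Oct4+ replicate 1, so whether the share lay above the background depended on single libraries.

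Several of the 14 domains were at endoderm genes of the lists. Pth1r carried H3K27me3 over 46.5%, 72.8% and 100% of its domain in Oct4+, the shared Col4a1 and Col4a2 start over 19.6%, 27.8% and 61.6%, and Lamb1 over 16.1%, 28.8% and 51.6%. No DP or Pdgfra+ library had a peak at these 3, where the unadjusted exact permutation p was 0.0357 each and the adjusted p 1. These p draw on the Pdgfra+ libraries too, whose H3K27me3 is not independent of how the regions were chosen. No Oct4+ library had an H3K27ac or H3K4me1 peak at Pth1r, while every DP library had both.

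Other domains kept H3K27me3 in DP. Zmiz1 (rank 133), a transcriptional coregulator, was covered by 21.8%, 92.1% and 100% in Oct4+ and by 99.5%, 66.2% and 92% in DP, and no Pdgfra+ library had a peak. The domain within Atf3 (rank 103), a stress-induced AP-1 family member, was covered by 23.0%, 35.1% and 51.7% in Oct4+ and by 25.2%, 22.1% and 0 in DP, with none in Pdgfra+. At the Zfp36l2 flank (rank 32), the Stra6 body and Shf, peaks stood in Oct4+ replicates 2 and 3 alone. Of the 14 domains, 6 had every DP library above every Oct4+ library for H3K27ac, with a median DP minus Oct4+ difference of 45 points, against 56 of 286 and 21.5 points without such a peak. Over all regions 15.8% had DP above Oct4+. The split by H3K27me3 was not made over all regions, so it cannot be called particular to the wide domains. Oct4+ replicate 3, with 5785 peaks the longest of the Oct4+ H3K27me3 lists, had the highest coverage.

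H3K9me3 was also scarce over the domains. Its covered share was 2.05%, 1.31% and 0.950% in Oct4+, 0.663%, 1.28% and 0.698% in DP and 1.30%, 0.324% and 0.762% in Pdgfra+, within 0.254 points of the other regions in every library. A peak in 2 or more libraries was found at 20 domains in Oct4+, 15 in DP and 15 in Pdgfra+, beside 3.47%, 2.5% and 2.62% of all regions, and 240 domains (80.0%) and 4570 of all regions (90.7%) had none in any library. Wider regions hold a peak more easily here too. By the exact permutation test 0 domains and 0.0% of all regions passed adjustment, with a lowest adjusted p of 1. With most regions lacking a peak, passing adjustment was barely possible for this mark too. Unadjusted, 11 passed (3.67%, beside 1.23%), 7 of them highest in Oct4+. With equal numbers of peaks per list 6 passed unadjusted (2.0%, beside 0.635%). At Lama5, peaks covered 11.7%, 20.2% and 7.88% in DP and 15.7%, 20.6% and 11.9% in Pdgfra+ and were absent from Oct4+ lists (unadjusted exact p = 0.0179, adjusted p of 1). A domain 105396 bp from the start of Car2 (rank 297), singled out after its values were seen, showed the reverse, with 94.3%, 74.0% and 63.1% in Oct4+ and none in DP or Pdgfra+ (unadjusted exact p = 0.0357).

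The 300-base windows under the strongest signal were compared with those of the other regions. GATA matches were in 17% of the 300 domain windows and 10.4% of the 4737 others, SOX in 19.7% and 11.4%, TEAD in 25.3% and 15.0%, AP-1 in 15.0% and 10.6%, and forkhead in 4.33% and 3.53%. GC boxes were in 29.7% and 49.97%, TFAP2 in 22.0% and 26.7%, STAT in 1.67% and 1.01% and the octamer in 0.333% and 0.866%. The median GC content of a window was 54.5% in domains and 62.3% in the others. In regions without a gene start the shares came closer, with GATA at 21.8% and 22.5%, AP-1 at 16.5% and 20.6%, SOX at 25.6% and 22.0% and TEAD at 30.8% and 23.2%. In regions with a start, GATA was at 13.2% and 4.32% and TEAD at 21.0% and 10.8%. These shares are descriptions and were not tested.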

How the data were processed

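CUT&Tag peak lists of 36 libraries were used, and 3 IgG samples were not used here. The authors called peaks with SEACR in stringent mode, per library against IgG. Each deposited line gives an interval, its total signal and its maximum signal, in fragment coverage summed over bases. The submitters' processing notes name mm10, bcl2fastq 2.19.1, Bowtie2, SAMtools 1.12, deepTools, SEACR and bedtools 2.26.0. SEACR's normalization setting is not given in the sources used, nor are read numbers, so depth is unknown, and no model of signal was fitted.

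Peaks were merged by shared or touching bases. The covered share of each region was computed per library and compared with the 4737 other regions. H3K27ac of DP and Oct4+ was called by non-overlap of 3 against 3 libraries. Other marks were tested by an exact two-sided permutation of the F statistic over all assignments of 9 libraries. These p were Benjamini-Hochberg adjusted over 5037 regions at 0.05. The permutation test was run on simulated data, and the adjustment was not. The replicates are separate samples per the labels, and a p measures the spread between them. Gene starts came from GENCODE vM21, 1 per gene, repeats, sequences and base composition from the RefSeq copy of GRCm38. No peak ran past a chromosome end. Python 3.11.15, NumPy 2.4.6, pandas 2.3.3 and Matplotlib 3.10.9 were used.

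The named domains were the 10 widest, those within 20 kb of a list gene, the 8 with the largest difference in each direction of H3K27ac, the 8 with the most H3K27me3 in Oct4+, those without H3K27ac in Oct4+ and ranks 298 to 303. Some named items are not reported here. A domain is named by the gene starts it holds, otherwise by the nearest one or the gene it lies in. The domains, lists and rules were chosen with earlier results of these data known. Alternatives were equal peak numbers, 150 or 600 domains, core width, each replicate left out, a replicate block, relative total signal, presence of a peak and 50% overlap, and, added after seeing the data, leaving out the widest domain.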

Additional observations from a re-analysis of the deposited data

How the results depend on the processing

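Over the alternatives listed with the methods, domains with DP above Oct4+ outnumbered the reverse wherever these calls were recomputed. Calls are counts, so they could grow or shrink but not change sign. The share of the reverse lay below that of all regions in the main setting and above it in some alternatives. The sign of 1 difference with no call, that of H3K4me1, changed. The percentage of domains with every DP library above every Oct4+ library for H3K27ac, 20.7%, became 40.7% with equal numbers of peaks (beside 17.2% of all regions), 32.7% with core width (17.4%) and 62.3% with relative total signal (31.1%). With a replicate left out it ran from 20.7% (without Oct4+ replicate 3, beside 16.3%, or DP replicate 3, beside 16.9%) to 56.7% (without DP replicate 2, beside 48.5%). The reverse, 0.667% (beside 0.794% of all regions), became 0.0% with 150 domains and 0.333% with 600 (beside 0.794% for both). It became 0.0% with core width (beside 0.415%) and 0.333% with relative total signal (beside 0.159%). With a replicate left out it ran from 0.0% (without Pdgfra+ replicate 3, beside 0.562%) to 5.33% (without Oct4+ replicate 3, beside 5.16%). The excess over other regions, DP minus Oct4+, of 5.67 points became 13.5 points with equal numbers of peaks, 13.8 with core width and 1.02 by the share of domains with a peak, and ran from 4.19 to 8.07 points when a replicate was left out. By the share of domains with a peak, Pdgfra+ minus Oct4+ was -4.89 points for H3K27me3 and -2.44 for H3K9me3, against -2.18 and -0.639 points of covered share, which became -1.14 and -0.287 with equal numbers of peaks and ran from -3.03 to -1.12 and from -0.882 to -0.269 when a replicate was left out. For H3K4me1 the same difference, -2.64 points, was 1.74 with equal numbers of peaks and ran from -14.7 to 5.78 points when a replicate was left out, so it has no settled sign. Without Pdgfra+ replicate 3, -14.7 points was larger than the spread between replicates (SD 10.1), and under the other alternatives the difference was smaller than that spread. The cause of these shifts was not tested. The H3K27me3 differences involve Pdgfra+ cells, whose H3K27ac chose the regions. Leaving out the widest domain, an alternative chosen after seeing the data, gave 62 of 299 domains (20.7%, beside 15.8% of all regions) and changed no call.

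Whether the shared replicate numbers pair the samples is not settled here. Deviations of same-numbered libraries from their population means correlated at -0.094 to 0.068 for H3K27ac, -0.264 to 0.332 for H3K4me1, -0.149 to 0.144 for H3K27me3 and -0.269 to 0.176 for H3K9me3. For libraries of different number the ranges were -0.0824 to 0.112, -0.424 to 0.377, -0.166 to 0.196 and -0.178 to 0.279. With 3 libraries per population, each centred on their mean, these correlations cannot exclude pairing. With the replicate block, DP was above Oct4+ in every pair at 24.0% of the domains, beside 19.6% of all regions, and the reverse held at 1.67%, beside 1.87%. In the blocked exact permutation test, an unadjusted p under 0.05 was reached at 3.0% of the domains for H3K4me1 (beside 0.735%), 0.0% for H3K27me3 (beside 0.0397%) and 0.667% for H3K9me3 (beside 0.199%). Unknown depth limits every statement on the absence of a mark.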
